A study of Mus musculus with 27 samples.

Results

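The Cyp3a cytochromes P450 were followed in the livers of 27 male C57BL/6J mice on 4 diets. The 7 genes described are Cyp3a11, Cyp3a13, Cyp3a16, Cyp3a25, Cyp3a41a, Cyp3a44 and Cyp3a59, chosen by name from the array's annotation, with the brightest probe set on average taken where a gene had several. Of the 18820 genes that had a probe set of their own in the series, 5 were Cyp3a genes from this list, and 4 of these 5 were among the 13603 genes that passed the intensity minimum. Cyp3a41a and Cyp3a59 were named only on probe sets that also named other Cyp3a genes, so no value of theirs alone exists in these data.

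All mice were killed at 12 months of age after dietary intervention from 9 weeks of age. C-fed mice (n = 7) had the AIN-93W diet ad libitum, MF-fed mice (n = 7) the medium fat AIN-93W-MF diet with 25% of energy from fat ad libitum, and CR-fed mice (n = 6) daily portions of AIN-93W-CR with a 30% energy reduction. INT-fed mice (n = 7) alternated weekly between AIN-93W-MF ad libitum and a 40% energy reduction relative to AIN-93W, and they were killed in a week of MF feeding. Every mouse, including the C-fed mice, had been fasted for 4 h, gavaged with carboxymethyl cellulose alone and fasted for a further 6 h. Only CR-fed mice were on a daily portion when they were killed, so the meal pattern and the energy reduction cannot be told apart in this group. The arrays were Affymetrix Mouse Gene 1.1 ST arrays, and values are log2 intensities, on which a difference of 1 is a doubling of signal.

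Cytochromes P450 of the CYP3A family are heme enzymes of the endoplasmic reticulum that oxidise steroids, bile acids and a wide range of drugs, and electrons reach them from the flavoprotein P450 oxidoreductase. In hepatocytes their transcription is controlled by the xenobiotic receptors PXR (Nr1i2) and CAR (Nr1i3) together with the liver factor HNF4A, and they are used as readouts of receptor activation. In mice the family also differs between the sexes: Cyp3a11, Cyp3a13 and Cyp3a25 are transcribed in adults of both sexes, whereas Cyp3a41a and Cyp3a44 are mainly female genes under the control of the growth hormone pattern, and Cyp3a16 is known from the fetal and female liver.

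All 9 Cyp3a genes of the mouse gene table lie on chromosome 5, and 8 of them are neighbours in one cluster in the order Cyp3a57, Cyp3a16, Cyp3a41b, Cyp3a41a, Cyp3a44, Cyp3a11, Cyp3a25 and Cyp3a59. Cyp3a13 lies apart from this cluster on the same chromosome. The promoters shown are those of the 4 genes whose own probe sets passed the intensity minimum. They are RefSeq sequences of build GRCm38.p6, from 250 bases before to 50 bases after the annotated start, all on the minus strand. The windows are chr5:145879805-145880104 for Cyp3a11, chr5:145805825-145806124 for Cyp3a44, chr5:146009569-146009868 for Cyp3a25 and chr5:137921570-137921869 for Cyp3a13. Capitals mark exact matches, on either strand, to the sequence CAAAGTCCA bound by HNF4A or to the nuclear receptor hexamers AGGTCA and AGTTCA. The annotated start used for Cyp3a13 lies 3991 bases inside the outer end of the gene in the same build, whereas those of Cyp3a11, Cyp3a44 and Cyp3a25 lie 0, 17 and 26 bases inside it.
Cyp3a11: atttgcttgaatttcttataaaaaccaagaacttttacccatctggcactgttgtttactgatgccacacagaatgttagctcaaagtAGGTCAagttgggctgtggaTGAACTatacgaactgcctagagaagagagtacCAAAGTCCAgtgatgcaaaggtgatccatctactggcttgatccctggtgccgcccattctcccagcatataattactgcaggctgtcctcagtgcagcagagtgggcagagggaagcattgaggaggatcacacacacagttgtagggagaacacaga
Cyp3a44: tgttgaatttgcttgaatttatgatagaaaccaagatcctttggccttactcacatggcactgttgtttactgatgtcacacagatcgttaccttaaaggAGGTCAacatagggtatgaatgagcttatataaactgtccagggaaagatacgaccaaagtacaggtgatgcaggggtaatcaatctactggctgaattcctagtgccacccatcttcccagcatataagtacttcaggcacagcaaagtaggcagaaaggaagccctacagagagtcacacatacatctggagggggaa
Cyp3a25: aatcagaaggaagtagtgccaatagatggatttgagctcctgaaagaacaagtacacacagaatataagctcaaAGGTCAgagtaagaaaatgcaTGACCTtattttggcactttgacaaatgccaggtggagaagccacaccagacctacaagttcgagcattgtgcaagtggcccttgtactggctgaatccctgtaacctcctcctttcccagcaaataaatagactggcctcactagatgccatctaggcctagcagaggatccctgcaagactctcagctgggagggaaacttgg
Cyp3a13: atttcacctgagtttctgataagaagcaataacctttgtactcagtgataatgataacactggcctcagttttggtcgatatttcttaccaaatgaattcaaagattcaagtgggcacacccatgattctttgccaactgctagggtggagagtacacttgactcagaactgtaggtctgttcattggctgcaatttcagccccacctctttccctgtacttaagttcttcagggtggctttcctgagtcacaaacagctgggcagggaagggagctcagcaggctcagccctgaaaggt

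The Cyp3a11 promoter held 1 match to each of these 3 motifs, Cyp3a44 1 AGGTCA match, Cyp3a25 2 AGGTCA matches, and Cyp3a13 none. In global alignments the Cyp3a11 window was 71.2% identical to that of Cyp3a44, against 52.9% for Cyp3a25 and 53.7% for Cyp3a13. Some pairs of genes that share probe sets had closer windows, with 93.0% identity between Cyp3a41a and Cyp3a44, 97.0% between Cyp3a41a and its near copy Cyp3a41b, and 95.7% between Cyp3a25 and Cyp3a59, whereas Cyp3a11 was 70.4% identical to Cyp3a41a. Across the 9 Cyp3a promoters, CAAAGTCCA was found in 4 (Cyp3a11, Cyp3a16, Cyp3a41a and Cyp3a41b), AGGTCA in 5 and AGTTCA in 3, compared with 0.475%, 16.3% and 14% of all 32817 mouse promoters of this length. The TATAA core was present in 8 of the 9 promoters and in 24.9% of all promoters, and the palindrome TTCNNNGAA recognised by STAT5 in 0 of the 9 and in 8.29% of all. Matches were counted anywhere in the window and on either strand. In Cyp3a25, Cyp3a57 and Cyp3a59 the only TATAA match began at -187, -185 and -188 from the annotated start. A TATAA match overlapped the AGTTCA match by 1 base in Cyp3a41a and Cyp3a41b, and no other matches to different motifs overlapped in these 9 windows. Several of the 9 windows are near copies of each other, so their matches are not independent. The matches are descriptions of the letters in these windows.

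Cyp3a11, the main drug-inducible CYP3A enzyme of adult mouse liver, had lower values on INT than on CR, and this was the only difference between diets that passed the test for any Cyp3a gene with its own probe set. Its log2 intensity ranged from 11.81 to 12.39 with a median of 12.12 in C-fed mice, and from 11.95 to 12.31 with a median of 12.20 in MF-fed mice. In INT-fed mice it ranged from 11.82 to 12.28 with a median of 11.91. In CR-fed mice it ranged from 12.15 to 12.53 with a median of 12.25. CR-fed mice thus had the highest minimum and the highest maximum of the 4 diets, but their range overlapped that of every other diet. In INT-fed mice the highest value, 12.28, was that of replicate 3.

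The mean of Cyp3a11 was 12.31 ± 0.16 (SD, n = 6) in CR-fed and 11.98 ± 0.16 (SD, n = 7) in INT-fed mice. The difference INT minus CR was -0.33 (standard error 0.09, 95% confidence interval -0.52 to -0.15, limma adjusted p = 0.0125), which is a 1.26-fold higher signal in CR-fed mice with an interval of 1.11 to 1.43. In this comparison 1 of the 4 tested Cyp3a genes was called at an adjusted p under 0.05, beside 15.0% of all 13603 genes. The call was lost within either run of array numbers, at -0.31 (adjusted p = 0.142) in replicates 1 to 4 and -0.32 (adjusted p = 0.217) in replicates 5 to 7, where fewer mice entered the fit. The direction was the same in both, and the later run differed from the earlier one by -0.02 (interval -0.16 to 0.11) across diets. This value averages shifts of opposite sign, at 0.12 in C-fed, 0.09 in MF-fed, -0.17 in INT-fed and -0.16 in CR-fed mice. The later run held only 2 CR-fed mice, beside 3 of each other diet.

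Of the order of the diet means, INT, C, MF and CR from low to high, no neighbouring pair differed in Cyp3a11. The mean was 12.09 ± 0.20 (SD, n = 7) in C-fed and 12.15 ± 0.14 (SD, n = 7) in MF-fed mice. The difference CR minus C was 0.22 (interval 0.03 to 0.41), with an unadjusted p of 0.0219 and an adjusted p of 0.0964 in limma, and it was not called. Without C replicate 5, the C-fed mouse with the highest Cyp3a11 value, the same difference was 0.27 with an adjusted p of 0.0382. It was 0.33 (adjusted p = 0.115) within replicates 1 to 4. Within replicates 5 to 7, which held only 2 CR-fed mice, it was 0.05 (interval -0.22 to 0.32, adjusted p = 0.888). CR minus MF was 0.16 (interval -0.02 to 0.35, adjusted p = 0.221), INT minus MF was -0.17 (interval -0.35 to 0.01, adjusted p = 0.487), and INT minus C was -0.11 (interval -0.29 to 0.07, adjusted p = 0.846).

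**Figure D1:**
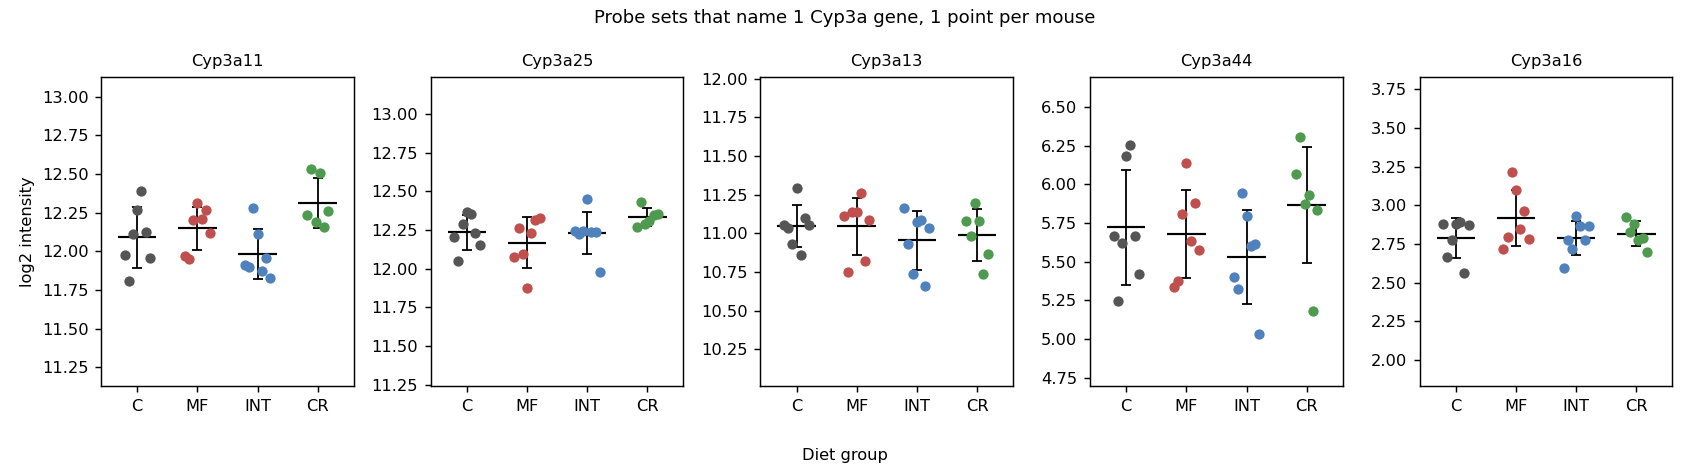
Log2 intensity of the 5 Cyp3a genes with a probe set of their own, with 1 point per mouse in the order of the replicate numbers, diets on the x axis, horizontal lines at the means and bars of 1 SD (n = 7 for C, MF and INT and n = 6 for CR). Each panel spans 2 log2 units around its own mean. Cyp3a11 values of the CR-fed mice start at 12.15, and Cyp3a16 stays between 2.56 and 3.21 in all 27 livers.

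Some markers of other liver cells and of liver zones also differed between INT-fed and CR-fed mice. In INT minus CR, 8.37% of all genes were called higher and 6.62% lower. Among 8 hepatocyte markers, all above the intensity minimum, the summed linear intensity was 73420 to 77280 in CR-fed and 66870 to 73280 in INT-fed mice. Of these 8, Tat and Cps1 were called lower in INT minus CR, at -0.53 (adjusted p = 0.00347) and -0.32 (adjusted p = 0.0154), and the median over the 8 was -0.02. The 10 pericentral hepatocyte markers, which belong to the zone where CYP3A enzymes are most abundant, summed to 24160 to 27680 in CR-fed and 28360 to 30500 in INT-fed mice, with 4 of the 10 called higher in INT minus CR and a median of 0.20. The 8 Kupffer cell and macrophage markers summed to 3744 to 5572 in CR-fed and 2340 to 3710 in INT-fed mice, with 5 of the 8 called lower and a median of -0.47. Of the 6 enterocyte markers, 4 passed the intensity minimum and Sis and Alpi were under it, and the 6 summed to 1157 to 1828 in CR-fed and 1861 to 2770 in INT-fed mice. Only Fabp2 was called among these (0.79, adjusted p = 0.000332), and Vil1, which defines enterocytes, was at -0.17 (adjusted p = 0.141). In the hepatocyte, pericentral, Kupffer cell and enterocyte lists the INT-fed and CR-fed ranges of the sums did not overlap. The gap was narrow in the hepatocyte list (73280 against 73420) and the Kupffer cell list (3710 against 3744). How often other sums lack overlap was not computed. Among single probe sets above the minimum, 2.07% were lower in INT-fed mice without overlap. The ranges overlapped in the periportal, endothelial, stellate cell, cholangiocyte, adipocyte and exocrine pancreas lists. The 6 tested periportal markers had 1 called higher and 2 called lower in INT minus CR. Their sums were 16980 to 19400 in CR-fed and 17620 to 19410 in INT-fed mice. The part of any list in the Cyp3a11 difference was not tested. In such bulk samples fewer cells of a type and less RNA per cell cannot be told apart.

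Cyp3a25, another CYP3A enzyme of the adult liver, differed by small amounts that did not pass the test. Its log2 intensity ranged from 12.05 to 12.37 (median 12.23) in C-fed, 11.87 to 12.33 (median 12.23) in MF-fed, 11.98 to 12.45 (median 12.24) in INT-fed and 12.27 to 12.43 (median 12.33) in CR-fed mice. The ranges overlapped in every pair of diets, and the CR-fed mice were the most uniform, with an SD of 0.06 compared with 0.11 to 0.16 in the other groups. CR minus MF was 0.17 (interval 0.02 to 0.31), with an unadjusted p of 0.0296 and an adjusted p of 0.109. INT minus CR was -0.10 (interval -0.25 to 0.05, adjusted p = 0.383), and INT minus C was -0.004 (interval -0.15 to 0.14, adjusted p = 0.995). From low to high the means followed the order MF, INT, C and CR, and no neighbours in this order differed.

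Cyp3a13, the member outside the cluster and known for its expression in liver and intestine, showed the narrowest range of diet means. Its log2 intensity ranged from 10.86 to 11.30 (median 11.05) in C-fed, 10.75 to 11.26 (median 11.11) in MF-fed, 10.66 to 11.17 (median 11.03) in INT-fed and 10.74 to 11.20 (median 11.03) in CR-fed mice. All 4 diets overlapped almost completely, and the order of the means (INT, CR, MF and C) had no neighbours that differed. INT minus CR was -0.03 (interval -0.23 to 0.16, adjusted p = 0.855), and CR minus C was -0.06 (interval -0.25 to 0.13, adjusted p = 0.741).

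The probe set of the mainly female gene Cyp3a44 was above the intensity minimum in all 27 male livers, with log2 intensities from 5.03 to 6.31. It ranged from 5.25 to 6.26 (median 5.67) in C-fed, 5.34 to 6.14 (median 5.63) in MF-fed, 5.03 to 5.94 (median 5.60) in INT-fed and 5.18 to 6.31 (median 5.90) in CR-fed mice. The lowest CR-fed mouse was thus below most INT-fed mice, and the groups overlapped broadly. INT minus CR was -0.34 (interval -0.69 to 0.02, adjusted p = 0.212), close to the value for Cyp3a11 but with a standard error of 0.17. CR minus C was 0.14 (interval -0.22 to 0.50, adjusted p = 0.643), and the order of the means, INT, MF, C and CR, had no neighbours that differed.

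Cyp3a16, the fetal and female gene, was under the intensity minimum of 20 (4.32 on the log2 scale) in all 27 livers, with values from 2.56 to 3.21, and it did not enter the test. Its diet means ranged from 2.79 in C-fed mice to 2.92 in MF-fed mice. When the minimum was dropped and all 18820 genes were tested, its largest absolute difference was MF minus C at 0.13 (interval -0.02 to 0.28, adjusted p = 1).

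The 4 diet means spanned 0.33 log2 units in Cyp3a11 and 0.34 in Cyp3a44, a span exceeding that of 81.9% and 82.2% of the 13603 tested genes. The span was 0.17 in Cyp3a25 and 0.09 in Cyp3a13, beside a median of 0.17 over all genes. The SD between mice of one diet was 0.17 in Cyp3a11 and Cyp3a13 and 0.13 in Cyp3a25, beside 0.16 for the median gene. In Cyp3a44 it was 0.34.

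Over the 4 tested Cyp3a genes the median log2 change was -0.22 for INT minus CR, beside -0.0009 over all tested genes, and 0.12 for CR minus C, beside 0.0038. Over all genes, changes in both directions offset each other, and the median absolute change was 0.11 in each comparison. The 4 Cyp3a genes ranged from -0.34 to -0.03 in INT minus CR and from -0.06 to 0.22 in CR minus C. None of the 4 was called in CR minus C or CR minus MF by limma, where 17.5% and 19.8% of all genes were called. At an unadjusted p under 0.05 there was 1 Cyp3a gene in each of these, Cyp3a11 in CR minus C and Cyp3a25 in CR minus MF. In INT minus C, INT minus MF and MF minus C, 0 of the 4 were called and 0 of the 4 had an unadjusted p under 0.05. In these 3 comparisons 0% of all genes were called, although 922, 1479 and 464 of the 13603 had an unadjusted p under 0.05. The 6 comparisons share groups of mice, so their values are not independent of each other.

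Both probe sets that name Cyp3a11, Cyp3a41a, Cyp3a41b and Cyp3a44 together gave a lower signal on INT than on CR, with no overlap between these groups. These are the only probe sets that name Cyp3a41a, and their signal cannot be assigned to one of the 4 genes. Within diets they followed each other with r = 0.99 and Cyp3a11 with r = 0.90 and 0.91. Their differences are therefore not independent of each other or of that of Cyp3a11. On the brighter of the pair the log2 intensity ranged from 8.27 to 8.69 (median 8.56) in INT-fed and from 8.75 to 9.25 (median 8.83) in CR-fed mice, with 8.33 to 8.98 (median 8.61) in C-fed and 8.46 to 9.00 (median 8.78) in MF-fed mice. Every CR-fed mouse was above every INT-fed mouse, while C-fed and MF-fed mice spread over much of both ranges. On the dimmer one, INT-fed mice ranged from 7.98 to 8.33 and CR-fed mice from 8.43 to 8.92.

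In a fit over all 24552 probe sets above the minimum, INT minus CR was -0.42 on the brighter probe set (interval -0.64 to -0.20, limma adjusted p = 0.00979) and -0.42 on the dimmer one (interval -0.63 to -0.21, adjusted p = 0.00749). CR-fed mice thus had 1.34-fold higher signals on both. In this fit 9.52% of probe sets were called, 4.35% were called lower in INT-fed mice, and 2.07% were lower without overlap between the groups. Neither call held within replicates 1 to 4 (adjusted p = 0.092 and 0.0631) or within replicates 5 to 7 (adjusted p = 0.444 and 0.486), where fewer mice entered the fit. The differences were -0.47 and -0.49 in the earlier run and -0.32 and -0.28 in the later one. CR minus C was 0.29 on both probe sets and was not called (adjusted p = 0.0795 and 0.0628), beside 11.5% of all probe sets that were. Both were called without C replicate 5 (adjusted p = 0.0283 and 0.0242) and in a fit blocked on mouse number (adjusted p = 0.045 and 0.025). Within replicates 1 to 4 the differences were 0.38 and 0.39, and within replicates 5 to 7 they were 0.12 and 0.11. The later run held only 2 CR-fed mice. INT minus MF was -0.24 and -0.23, with unadjusted p-values of 0.023 and 0.0275 and adjusted p-values of 0.512 and 0.529.

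The probe set that names Cyp3a25, Cyp3a57 and Cyp3a59, the only one with Cyp3a59, was not called in any of the 6 comparisons, including CR minus MF, in which 13.2% of all probe sets were called. It ranged from 10.65 to 11.13 in C-fed, 10.58 to 10.96 in MF-fed, 10.30 to 11.05 in INT-fed and 10.85 to 11.14 in CR-fed mice. Its INT minus CR difference was -0.15 (interval -0.36 to 0.06, adjusted p = 0.42). The probe set of Cyp3a57 alone was under the intensity minimum in all 27 livers.

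**Figure D2:**
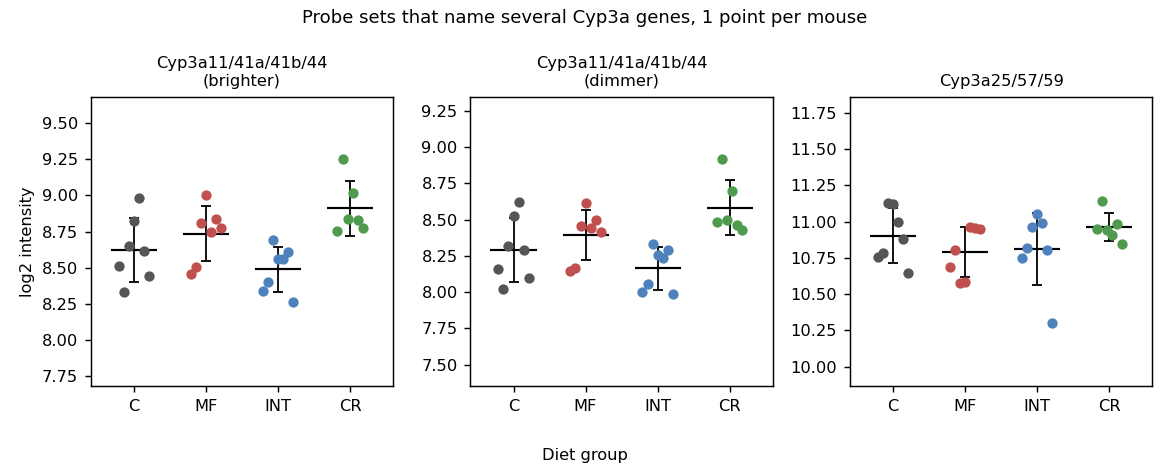
Log2 intensity of the 3 probe sets that name several Cyp3a genes, with 1 point per mouse in the order of the replicate numbers, lines at the means and bars of 1 SD (n = 7 for C, MF and INT and n = 6 for CR), each panel spanning 2 log2 units. In the left and middle panels, all CR-fed mice lie above all INT-fed mice, and INT replicate 7 lies at 10.30 in the right panel.

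**Figure D3:**
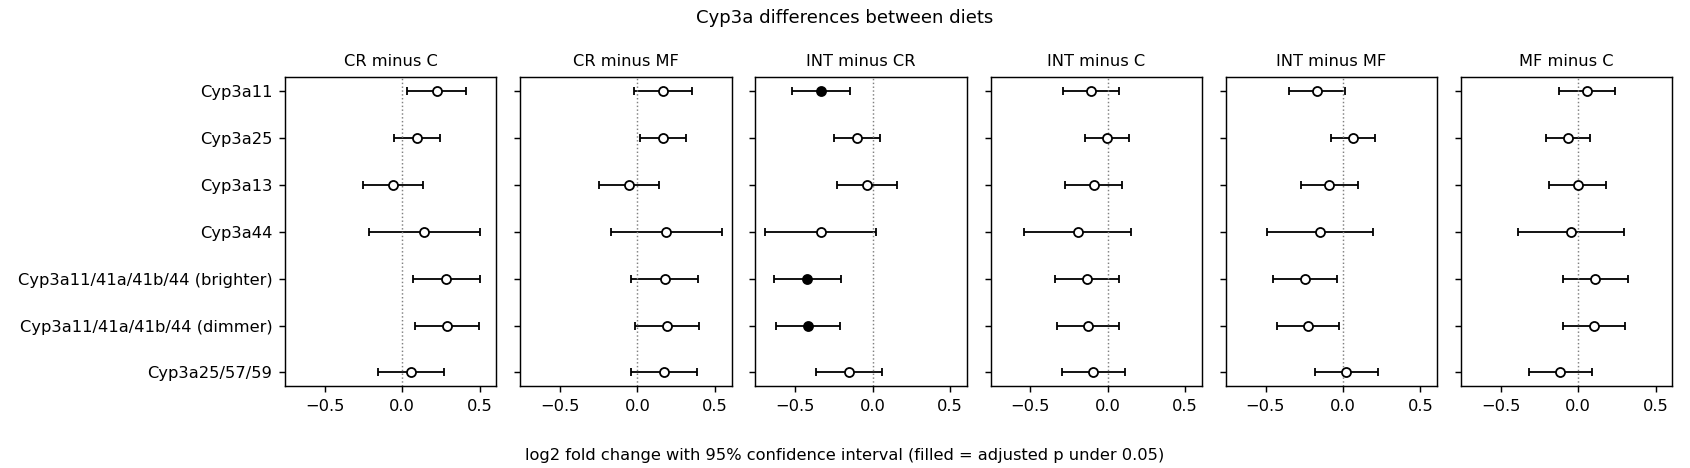
Log2 fold changes between diets (x axis) with 95% confidence intervals for the 4 tested Cyp3a genes and the 3 shared probe sets (rows), in 6 comparisons (panels), filled where the adjusted p was under 0.05. Filled points occur only in INT minus CR, at -0.33 for Cyp3a11 and -0.42 for both probe sets that name Cyp3a11, Cyp3a41a, Cyp3a41b and Cyp3a44.

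To ask whether the fall from CR to INT was larger for Cyp3a11 than for its relatives, the differences between genes were compared within each mouse. The INT minus CR change of Cyp3a11 was lower than that of Cyp3a25 by 0.23 log2 units (exact permutation test over 1716 splits, two-sided p = 0.0163, adjusted p = 0.0490 over 3 pairs). It was lower than that of Cyp3a13 by 0.30, which did not pass the test (exact permutation p = 0.0693, adjusted p = 0.104), and it differed from that of Cyp3a44 by 0.0028 (exact permutation p = 0.982). The 3 pairs were chosen with the Cyp3a11 result known.

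Individual mice differed in Cyp3a expression within a diet, and Cyp3a11 and Cyp3a44 varied together. After the mean of its diet had been taken from each value, the deviations of the 27 livers correlated with r = 0.85 and rho = 0.83 (permutation p = 1e-05 for each, the smallest that 100000 permutations can give, adjusted p = 6e-05 over 6 pairs). Without the 2 livers farthest from the median in Cyp3a11, r was 0.82. Within the diets r was 0.95 in C-fed, 0.94 in MF-fed, 0.85 in INT-fed and 0.66 in CR-fed mice, and within-diet Cyp3a11 deviations followed both shared probe sets with r = 0.90 and 0.91. The sequences of the probes were not used here, so the extent to which Cyp3a11 transcripts contribute to the Cyp3a44 signal was not tested.

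Cyp3a25 followed Cyp3a11 less closely, with r = 0.38 (permutation p = 0.057, adjusted p = 0.17) and rho = 0.45 (permutation p = 0.029, adjusted p = 0.087), and r = 0.36 without the 2 farthest livers. This relation differed in sign between diets, at 0.95 in C-fed and -0.26 in MF-fed mice, a difference that was not tested. MF replicate 4 combined the highest Cyp3a11 value of its diet, 12.31, with the lowest Cyp3a25 value, 11.87. Cyp3a25 and its shared probe set varied together with r = 0.82. Cyp3a13 showed no relation that passed the test, with r = -0.02 (rho = 0.11) to Cyp3a11, -0.19 (rho = -0.18) to Cyp3a25 and 0.12 (rho = 0.19) to Cyp3a44, and adjusted permutation p-values between 0.47 and 0.93.

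**Figure D4:**
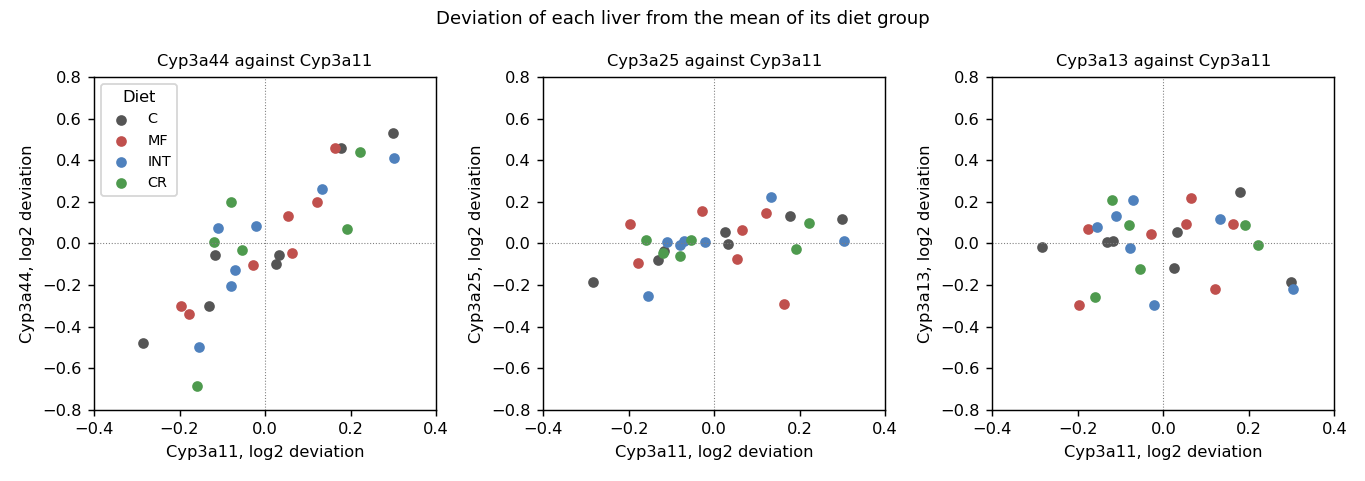
Deviation of each of the 27 livers from the mean of its diet, in log2 units, for Cyp3a44, Cyp3a25 and Cyp3a13 (y axes) against Cyp3a11 (x axes), coloured by diet. The points for Cyp3a44 rise along the diagonal (r = 0.85), those for Cyp3a25 less so (r = 0.38), and those for Cyp3a13 form a cloud (r = -0.02).

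Among the tested genes outside the Cyp3a family, the 3 whose within-diet deviations were most like those of Cyp3a11 were Rad18, a ubiquitin ligase of DNA damage tolerance (r = 0.84), Sypl (r = 0.77) and the exocyst subunit Exoc6 (r = 0.74). For Cyp3a13 they were Thoc2 (r = 0.81), Fbxo31 (r = 0.77) and Pole4 (r = 0.76), and for Cyp3a25 Gatad1 (r = 0.70), Fam210a (r = 0.70) and Ppm1a (r = 0.69). For Cyp3a44 they were Rhoh (r = 0.67), B2m (r = 0.67) and Ephx1, the microsomal epoxide hydrolase (r = 0.66). These values describe 27 livers whose points share an array, and the 99th percentile over these genes lay between 0.50 and 0.55.

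Of 18 regulators of Cyp3a transcription, 14 were tested, with 1 higher and 1 lower in CR-fed than in C-fed mice, where 8.46% of all genes were called higher and 9.05% lower. The xenobiotic receptor gene Nr1i2 differed by -0.16 (interval -0.37 to 0.05, adjusted p = 0.327) in CR minus C and by 0.02 (interval -0.19 to 0.24, adjusted p = 0.909) in INT minus CR. The fasting-induced coactivator gene Ppargc1a rose by 1.63 in CR minus C (adjusted p = 9.39e-08) and fell by 1.78 in INT minus CR (adjusted p = 1.58e-08). The bile acid receptor gene Nr1h4 moved the other way, at -0.30 (adjusted p = 3.59e-05) and 0.36 (adjusted p = 3.82e-06). The list median was -0.08 in CR minus C and 0.07 in INT minus CR. Nr1i3 had no probe set of its own.

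Larger changes than in Cyp3a11 were measured among other targets of PXR and CAR. Of 22 listed, 17 were tested, with 8 higher and 3 lower in CR minus C (median 0.16), where 8.46% of all genes were called higher and 9.05% lower. In INT minus CR, 2 were higher and 7 lower (median -0.06), where 8.37% of all genes were called higher and 6.62% lower. Cyp2b10, a classical CAR target, ranged from 4.71 to 8.29 in C-fed, 3.63 to 5.52 in INT-fed and 6.91 to 8.70 in CR-fed mice. It rose by 2.18 in CR minus C (adjusted p = 0.00177), and its INT minus CR change was -3.49 (interval -4.46 to -2.51, adjusted p = 7.8e-06). The transporter genes Slco1a4 and Abcb1a rose by 1.56 (adjusted p = 3.74e-06) and 1.00 (adjusted p = 0.000614) in CR minus C, and their INT minus CR changes were -1.86 and -1.24 (adjusted p = 2.71e-07 and 5.77e-05). Cyp2c54, another P450 gene, changed by -0.92 (adjusted p = 0.0464) and 1.23 (adjusted p = 0.00827).

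Of 14 genes of electron transfer and heme supply, 12 were tested, with 1 higher and 3 lower in CR minus C (median -0.05) and 2 higher and 0 lower in INT minus CR (median 0.0047), beside 8.46% and 9.05% of all genes in the first comparison and 8.37% and 6.62% in the second. Alas1, which encodes the rate-limiting enzyme of hepatic heme synthesis, changed by -0.53 in CR minus C (adjusted p = 0.000436) and by 0.33 in INT minus CR (adjusted p = 0.0251). Cpox, a later enzyme of the pathway, changed by -0.77 (adjusted p = 8.22e-06) and 0.77 (adjusted p = 8.16e-06). In CR minus C, Uros changed by -0.25 (adjusted p = 0.0221), and ferrochelatase (Fech), which inserts the iron, by 0.17 (adjusted p = 0.0431). Por, the P450 oxidoreductase gene, had no probe set of its own.

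Of 16 genes of growth hormone signalling and sex-biased expression, 15 were tested, with 3 higher and 2 lower in CR minus C (median -0.07) and 4 higher and 2 lower in INT minus CR (median 0.02), beside the same shares of all genes (8.46% higher and 9.05% lower, then 8.37% and 6.62%). The female-biased transcription factor gene Cux2 ranged from 4.51 to 5.24 in C-fed, 4.57 to 4.93 in INT-fed and 6.41 to 6.92 in CR-fed mice, so that CR-fed mice were apart from both. It rose by 1.85 in CR minus C (adjusted p = 4.83e-14) and its INT minus CR change was -1.99 (adjusted p = 7.28e-15). Tox and Trim24 rose by 0.69 (adjusted p = 0.000218) and 0.29 (adjusted p = 0.0216) in CR minus C, and Stat5a changed by -0.45 (adjusted p = 0.00179). Stat5b, the main transducer of the male growth hormone pattern, differed by 0.13 (interval 0.0003 to 0.25, adjusted p = 0.168). Bcl6, a repressor with male bias, differed by -0.10 (interval -0.96 to 0.77, adjusted p = 0.917) in CR minus C and by 1.27 (adjusted p = 0.0408) in INT minus CR.

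For other P450 families, the absolute INT minus CR change had a median of 4.05 over 4 Cyp2b genes, 0.38 over 11 Cyp2c genes and 3.46 over 4 Cyp4a genes. It ranged from 0.08 to 7.10, from 0.13 to 1.88 and from 0.18 to 6.58 in these families. The 4 tested Cyp3a genes had a median change of -0.22 and ranged from -0.34 to -0.03. These families were not tested against each other. In this comparison 3 Cyp2b genes were lower in INT-fed mice, 2 Cyp2c genes were higher and 4 lower, and 2 Cyp4a genes were higher, where 8.37% of all genes were called higher and 6.62% lower.

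**Figure D5:**
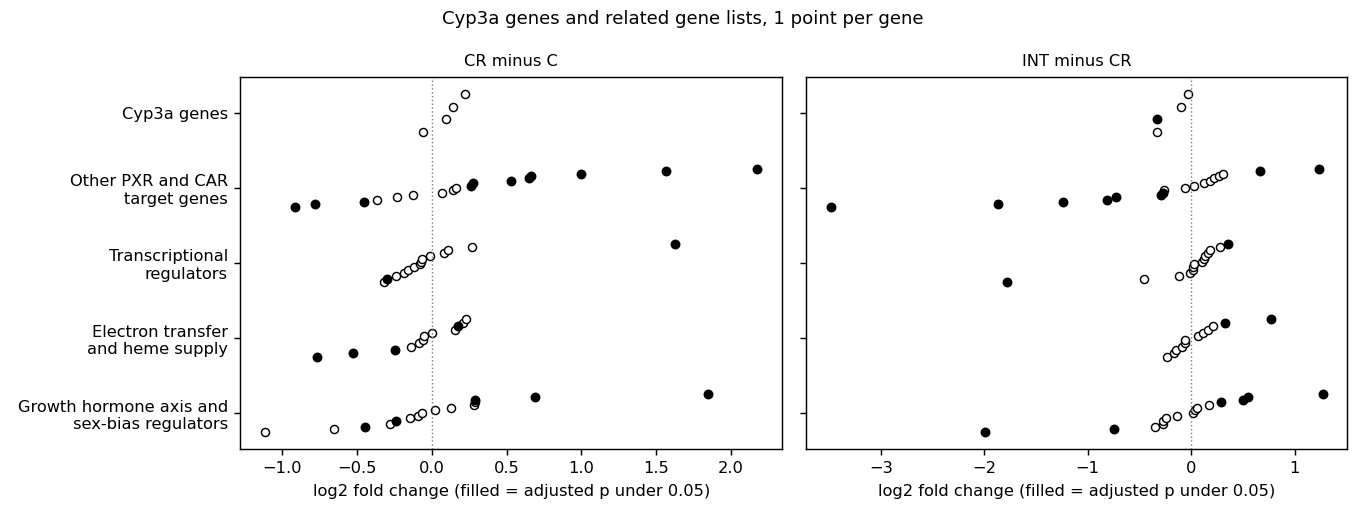
Log2 fold changes (x axes) of the Cyp3a genes and of 4 related gene lists (rows) in CR minus C and INT minus CR, with 1 point per gene, filled where the adjusted p was under 0.05, and points spread vertically by their order. The Cyp3a genes stay within 0.34 of 0, while Cyp2b10 reaches 2.18 and -3.49 in the row of other PXR and CAR target genes.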

How the data were processed

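Liver RNA of 27 mice was hybridised to Affymetrix Mouse Gene 1.1 ST arrays. The authors deposited log2 intensities normalized by robust multiarray average (RMA). The methods describe Entrez-based probe sets, whereas the table used here holds 35556 probe sets of the maker, which GEO's platform annotation assigned to 1 gene (21218), several (1881) or none (12457). RefSeq symbols matched 18790 of 18820 genes. Groups came from the labels. For each gene the probe set of highest mean was kept if its intensity exceeded 20 on at least 5 arrays (the authors' filter), which left 13603 genes. Diets were compared over all 27 arrays by limma 3.58.1 (group means, contrasts and eBayes, R 4.3.3) with Benjamini-Hochberg adjustment and 0.05 as threshold. A second fit over 24552 probe sets, added after the data were seen, served the probe sets that name several genes. Python 3.11.15 with scipy 1.17.1 served the permutation tests. The code was tested on simulated data. Named genes were all 7 Cyp3a genes, up to 4 called genes per list with the largest change in CR minus C, and Nr1i2, Nr1i3, Por, Cyp2b10, Bcl6, Cux2 and Stat5b. The members and lists were chosen with earlier results of these data known. Arrays have no read depth, and the number of mice limits the precision. Array medians ranged from 5.21 to 5.27 and correlations between arrays from 0.982 to 0.992, and no array was a copy of another. Alternatives covered the filter, scaling, variance model, blocks, array runs, probe set choice and leaving out each mouse.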

Additional observations from a re-analysis of the deposited data

Results flagged for a closer look

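The probe set that names Cyp3a25, Cyp3a57 and Cyp3a59 had 1 distant sample. INT replicate 7 was at 10.30, the nearest INT-fed mouse at 10.75 and the highest at 11.05, so its gap was 0.60 of the range of the group, above the critical value of 0.568 for 7 samples. This was 1 of 32 groups of mice examined in this way, and chance marks about 1 group in 20.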

How the results depend on the processing

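Of 1692 values recomputed under alternatives, 1678 kept their side of the threshold and none of the called values changed sign, whereas 37 values of differences that were not called did. The count of Cyp3a genes called in CR minus C was 1 instead of 0 with array weights (Cyp3a11, adjusted p = 0.0487), and from 0 to 1 when single mice were left out, with 1 only without C replicate 5. The count in INT minus CR was 0 instead of 1 within replicates 1 to 4 and 0 within replicates 5 to 7, each of which holds fewer mice. Replicates 5 to 7 include only 2 CR-fed mice. The INT minus CR change of Cyp3a11 lay between -0.38 and -0.29 in 42 alternatives and its adjusted p between 0.00368 and 0.217. Without single mice the adjusted p stayed between 0.00368 and 0.0425. The one-way test with Tukey's post-test of the methods gave an adjusted p of 0.00811. The CR minus C differences of the probe sets that name Cyp3a11, Cyp3a41a, Cyp3a41b and Cyp3a44 were called on both in a fit blocked on mouse number (adjusted p = 0.045 and 0.025) and without C replicate 5 (adjusted p = 0.0283 and 0.0242), and on the dimmer one also with array weights (adjusted p = 0.0381) and without C replicate 4 (adjusted p = 0.0438), and the cause was not tested. With the replicate block, Cyp3a11 INT minus CR was -0.32 (adjusted p = 0.0142), and the block changed no call. The correlations of 39 pairs with the same replicate number ranged from -0.25 to 0.30 (median 0.08), 17 of the 39 were over 0.1 and 11 of 27 mice correlated best with their own number. With mouse numbers, 11 of 39 pairs were over 0.1 and 2 of 27 mice correlated best with their own number. As not every pair was over 0.1, neither number was taken to pair the mice. A likeness shared by only some of the mice would fail this rule, so the rule cannot show that the mice were unpaired.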
